A study of Mus musculus with 2 samples.

Results

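The mouse genes whose symbols start with Ube2 encode, with few exceptions, the ubiquitin-conjugating (E2) enzymes, and all 35 such symbols among the 17608 genes of the deposited table were followed here. The rule that chose them used the symbol and no measured value, but it was set with earlier results of these data known. A UMI (unique molecular identifier, which marks 1 captured RNA molecule) was found for 34 of them, and Ube2ql1 had none in any of 3357 cells. The sources used here describe the cells as red cell progenitors low in CD71 and CD24, from the fetal liver of C57BL/6 embryos at stage E14.5. The cells were read by single-cell RNA sequencing with a 3' kit. By transcripts they were mixed: 305 of the 3357 had granulocyte or monocyte transcripts and 734 were globin-rich, both as defined below. A CFU-E (colony-forming unit-erythroid) is a later and a BFU-E (burst-forming unit-erythroid) an earlier committed red cell progenitor.

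The hashed library held 904 cells, named by antibody-linked barcodes as FACS CFU-E (167 cells), FACS BFU-E (233), PE-high (294) and PE-low (208), with 2 cells named unknown. FACS is fluorescence-activated cell sorting. A magnet method is named next to it in the labels, and the PE names were taken for its fractions. The CITE-seq library, stained with barcoded antibodies against CD117 and CD71, held 2453 cells named CS CFUE (195), CS BFUE (122) or unknown (2136). Strain, age and tissue were the same for all. The labels also describe growth for 10 days with 100 uM dexamethasone or methanol; whether the sequenced cells passed through it is unstated in the sources used here. Each name is 1 sample, with no replicate, from an unstated number of embryos. No difference below therefore has a replicate check, and no p-value was computed. The 95% intervals cover counting error only.

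A cell was called globin-rich where the globin genes together had 20 or more UMIs per 10000 of the cell. There were 65 such cells in the hashed library (58 of them in PE-high and 6 in FACS CFU-E) and 669 in the CITE-seq library (656 of them named unknown). The class is a cut through a range: 107 hashed and 868 CITE-seq cells reached 10 per 10000, and 33 and 398 reached 50. The listed erythroblast markers summed to 1692 CPM in globin-rich against 355 in other hashed cells, and 1413 against 399 in the CITE-seq library. CPM is UMIs per 1000000 UMIs of the cells. FACS CFU-E had 6232350 UMIs and FACS BFU-E 7374761, PE-high 11003022 and PE-low 7084148, and CS CFUE 7317861 and CS BFUE 2968491. The 9 CFU-E stage markers were higher in the later pools: they summed to 3903 CPM in FACS CFU-E against 1129 in FACS BFU-E, 3515 in PE-high against 1289.5 in PE-low, and 3651 in CS CFUE against 984 in CS BFUE. The earlier pools also held cells with granulocyte and monocyte transcripts, at 5 or more UMIs per 10000: 0 of 167 FACS CFU-E against 75 of 233 FACS BFU-E cells, 19 of 294 PE-high against 52 of 208 PE-low cells, and 2 of 195 CS CFUE against 36 of 122 CS BFUE cells. The 6 granulocyte progenitor markers summed to 6.42, 184 and 13.3 CPM in FACS CFU-E, PE-high and CS CFUE, against 1341, 725 and 634 CPM in FACS BFU-E, PE-low and CS BFUE. Hepatocyte markers summed to 34.5 CPM in globin-rich against 188 in other CITE-seq cells, and to 154 in CS CFUE against 33.0 in CS BFUE. Values without the myeloid-transcript cells are given below, and beyond those the part of other cell types in the results was not tested.

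An E2 enzyme takes activated ubiquitin from an E1 enzyme and, with an E3 ligase, passes it to a target protein. Which E2 takes part shapes whether 1 ubiquitin or a chain is built and through which lysine the chain is linked, and a few E2 enzymes carry the related proteins SUMO, NEDD8 or ISG15 instead. Red cell precursors divide quickly and then remodel their protein content through ubiquitin and the proteasome, and the E2 enzymes Ube2h and Ube2o are known for parts in that late remodelling.

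The 35 genes together took 0.446% of the UMIs of FACS CFU-E and 0.418% of those of FACS BFU-E, 0.438% of PE-high and 0.434% of PE-low, and 0.382% of CS CFUE and 0.342% of CS BFUE. In globin-rich cells the share was 0.444% against 0.433% in the other hashed cells, and 0.361% against 0.369% in the other CITE-seq cells. The total thus stayed within narrow bounds, and the CITE-seq names lay below the hashed ones. With 1 library each, the antibody panel, the capture and the cells cannot be told apart as the source of that gap.

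Levels were spread over a wide range. Over the 6 named pools, the most abundant of the members described here were Ube2s, which averaged 548 CPM, Ube2c 352, Ube2l3 327, Ube2d3 308 and Ube2m 258. The kit reads 1 end of each RNA, so these levels count molecules and are not divided by length. They cover different jobs. Ube2s lengthens chains that the anaphase-promoting complex (APC/C), the ligase of mitotic exit, starts with Ube2c. Ube2m is an E2 of NEDD8, Ube2l3 works with HECT and RBR ligases, and Ube2d3 is a broadly used initiating E2. In all, 16 members averaged 100 CPM or more, and 26 averaged 20 CPM or more and were compared between pools. The other 9 were Ube2d1, Ube2w, Ube2h, Ube2l6, Ube2cbp, Ube2e2, Ube2d2b, Ube2u and Ube2ql1. Ube2cbp is named for binding to Ube2c and is not a conjugating enzyme itself. Ube2d2b, a close copy of Ube2d2a, had 5 UMIs in all cells and Ube2u had 2. The 0 UMIs of Ube2ql1 in 104273072 allow a level of up to 0.0288 CPM (3 counts of the total). The sources used here do not state how reads shared by near-identical copies were treated, so the levels of Ube2d2a and Ube2d2b are uncertain.

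**Figure D1:**
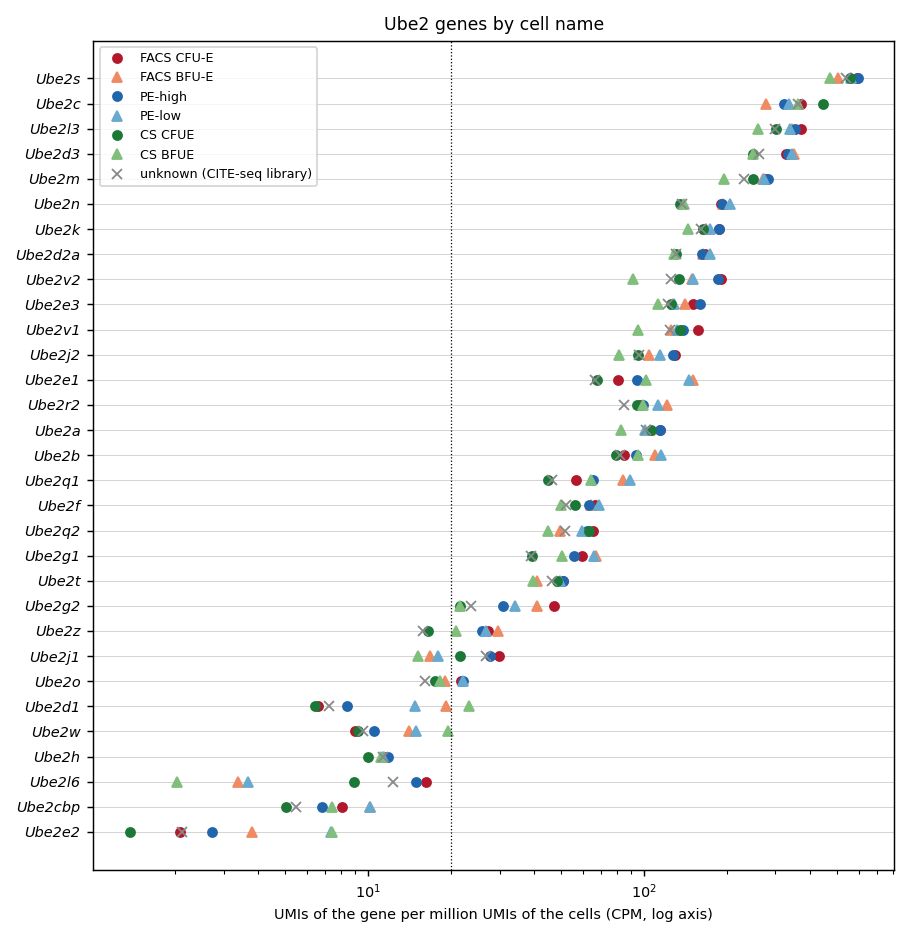
Level of the Ube2 genes described here with a mean of 1 CPM or more, by cell name, in CPM on a log axis, ordered by mean over the 6 named pools; circles are the later and triangles the earlier pool of a pair, crosses the unnamed CITE-seq cells, and the dotted line marks 20 CPM. Ube2s leads at a mean of 548 CPM. Each later pool lies above the earlier pool of its pair for Ube2l6, and below it for Ube2e1 and Ube2d1.

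Both abundant and rare members included some with a narrow and some with a wide spread among pools. Over the 6 named pools, the highest pool level was 1.27 times the lowest for Ube2s, 1.61 for Ube2c, 2.10 for Ube2v2 and 2.23 for Ube2e1. Among members under 20 CPM it was 1.18 times the lowest for Ube2h, 2.17 for Ube2w, 3.62 for Ube2d1, 5.42 for Ube2e2 and 8.02 for Ube2l6. The lowest level rests on 10 UMIs in CS CFUE for Ube2e2 and on 6 in CS BFUE for Ube2l6. The value of Ube2l6 also sets FACS CFU-E against a pool of the other library. Some of this spread followed the library rather than the name: Ube2g2, an E2 of degradation at the endoplasmic reticulum, ranged between 30.8 and 47.2 CPM in the 4 hashed pools and had 21.5 CPM in CS CFUE and 21.6 in CS BFUE.

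The first question was which E2 genes differ between the later and the earlier progenitors, within each isolation method and in the CITE-seq names. Of the 26 members compared, Ube2j1 was at least 1.5-fold higher and Ube2e1 at least 1.5-fold lower in FACS CFU-E than in FACS BFU-E, against a background of 8.54% of 5410 genes higher and 10.1% lower. The same pair lay past 1.5-fold in PE-high against PE-low, where 5.84% of genes were higher and 7.28% lower. In CS CFUE against CS BFUE only Ube2e1 did, being lower, with 10.2% of genes higher and 9.41% lower. A count of 1 of 26 in a direction is below or near those shares, so the family as a whole did not stand out. Median log2 ratios of the 26 were 0.12, 0.01 and 0.18 in the FACS, PE and CS pairs, against 0.02, 0.00 and 0.05 over all genes compared.

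Ube2e1 was the member of the initiating group that fell most among those compared. Its gene lies at chr14:18282726-18332004 (GRCm38.p6, as are the positions below), and it belongs to the Ube2e enzymes, which carry an extension before the conjugating domain. Its level was 80.5 CPM in FACS CFU-E beside 150.1 in FACS BFU-E, 94.6 in PE-high beside 146 in PE-low, and 67.4 in CS CFUE beside 102 in CS BFUE. Each later pool was below the earlier pool of its pair, as for 33.5% of all genes compared. The ratios were 0.537 (95% counting interval 0.482 to 0.597), 0.647 (0.593 to 0.706) and 0.660 (0.571 to 0.764). Without the cells with myeloid transcripts they were 0.561, 0.639 and 0.649. Without globin-rich cells the PE ratio was 0.695, and without the top 1 of 4 bins of cells by G2/M gene share it was 0.671, both short of 1.5-fold.

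The other Ube2d and Ube2e genes did not share a single course. Ube2d3 had 326 CPM in FACS CFU-E beside 350.0 in FACS BFU-E, 332 in PE-high beside 345 in PE-low, and 249 in CS CFUE beside 249 in CS BFUE. Its ratios were 0.932, 0.962 and 1.00. Those of Ube2d2a and Ube2e3 lay between 0.937 and 1.24 in all 3 pairs. Ube2d1, a relative of Ube2d3 at far lower level, had 6.58 CPM in FACS CFU-E beside 19.1 in FACS BFU-E, 8.36 in PE-high beside 14.8 in PE-low, and 6.42 in CS CFUE beside 23.2 in CS BFUE. Its later pools were all lower, with ratios of 0.344 (0.237 to 0.490), 0.564 (0.422 to 0.754) and 0.276 (0.187 to 0.406), but it averaged under 20 CPM and was not counted above. Without the cells with myeloid transcripts they were 0.351, 0.581 and 0.289. Ube2e2 and Ube2w, an enzyme that adds ubiquitin to the start of proteins, also had lower levels in the later pools, at ratios of 0.549 (0.261 to 1.10), 0.371 (0.229 to 0.593) and 0.184 (0.0779 to 0.406) for Ube2e2 and 0.637 (0.452 to 0.890), 0.705 (0.537 to 0.926) and 0.469 (0.325 to 0.678) for Ube2w. The FACS interval of Ube2e2 holds 1.

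Ube2j1, an E2 anchored in the membrane of the endoplasmic reticulum, was the compared member with the highest later-to-earlier ratio in the FACS and PE pairs. Its gene lies at chr4:33031380-33052367. Its level was 29.8 CPM in FACS CFU-E beside 16.8 in FACS BFU-E, 27.6 in PE-high beside 17.9 in PE-low, and 21.5 in CS CFUE beside 15.2 in CS BFUE. The ratios were 1.77 (95% counting interval 1.41 to 2.25), 1.54 (1.249 to 1.91) and 1.42 (1.01 to 2.02). Each later pool was above the earlier pool of its pair, as for 39.7% of all genes compared. Without the cells with myeloid transcripts the ratios were 1.98, 1.64 and 1.40. Without globin-rich cells the PE ratio was 1.47, again short of 1.5-fold. The other 5 enzymes grouped with it by a role at the endoplasmic reticulum or in lysine 48 chains did not share its size. Ube2j2, anchored in the same membrane, had ratios of 1.24, 1.11 and 1.17, and Ube2k 1.11, 1.08 and 1.14. Ube2g1 had 0.887, 0.840 and 0.776, Ube2g2 1.15, 0.906 and 0.995, and Ube2r2, which works with cullin ligases, 0.794, 0.876 and 0.946.

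Smaller differences repeated across the pairs. Of the 26, 13 were higher in all 3 later pools and 8 lower in all 3, against 39.7% and 33.5% of all genes. The counting interval lay above 1 in all 3 pairs for 6 members, among them Ube2j1, Ube2j2, Ube2k, Ube2s and Ube2v2, against 19.7% of all genes compared, and below 1 for 3 (Ube2b, Ube2e1 and Ube2q1), against 16.7%. Neither share is far from its background. Ube2v2, a catalytically inactive variant that directs Ube2n to lysine 63 chains, had 191 CPM in FACS CFU-E beside 149.8 in FACS BFU-E, 186 in PE-high beside 151 in PE-low, and 134 in CS CFUE beside 91.0 in CS BFUE. The other variant, Ube2v1, had ratios of 1.254, 1.05 and 1.42, while Ube2n itself had 0.987, 0.933 and 0.961. Both variants were thus above the ratio of their catalytic partner in each pair. The DNA damage enzymes Ube2a and Ube2b, near twins that act with Rad18, went separate ways, at 1.09, 1.13 and 1.28 for Ube2a and 0.772, 0.812 and 0.834 for Ube2b. Ube2q1 had 56.6 CPM in FACS CFU-E beside 83.8 in FACS BFU-E, 65.3 in PE-high beside 89.2 in PE-low, and 44.8 in CS CFUE beside 64.3 in CS BFUE, with ratios of 0.676, 0.731 and 0.697, and its relative Ube2q2 had 1.31, 1.04 and 1.41. The ratios of Ube2f, Ube2l3, Ube2m, Ube2t and Ube2z, the last charged by the E1 Uba6, lay between 0.792 and 1.27 in all 3 pairs. Ube2cbp, with 8.02 CPM in FACS CFU-E beside 10.2 in FACS BFU-E, 6.82 in PE-high beside 10.2 in PE-low, and 5.06 in CS CFUE beside 7.41 in CS BFUE, was lower in each later pool.

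**Figure D2:**
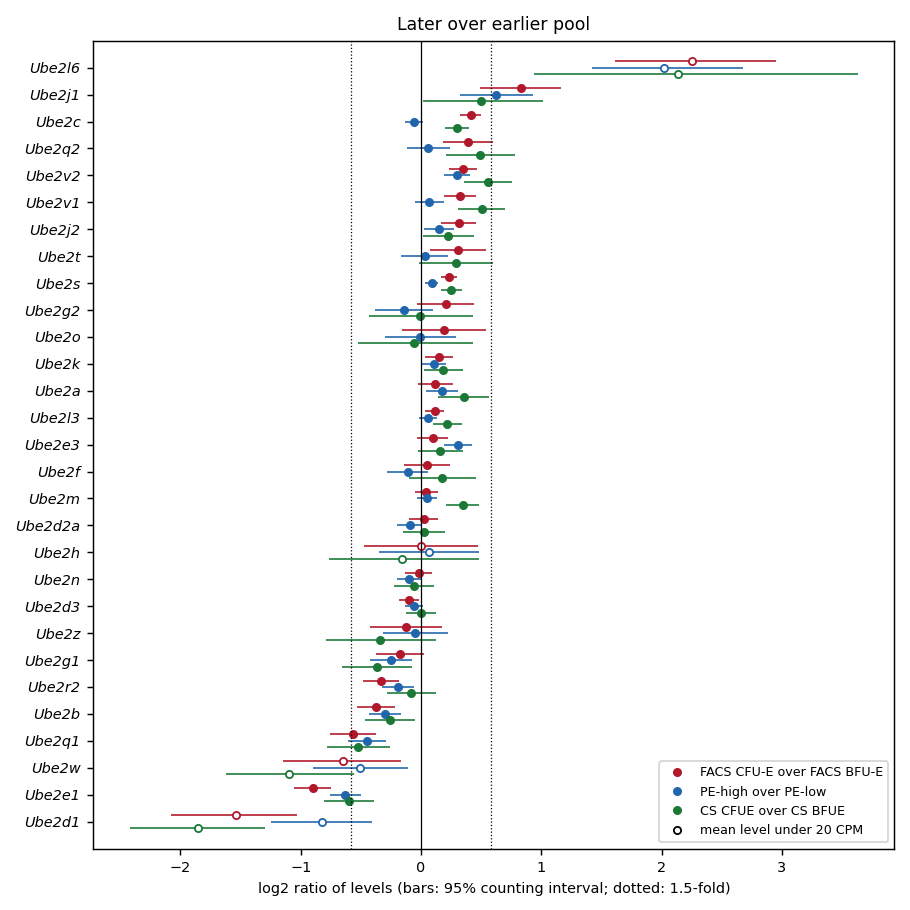
Log2 ratio of the later over the earlier pool for the compared Ube2 genes described here and for Ube2l6, Ube2d1, Ube2h and Ube2w, with 95% counting intervals, in the FACS (red), PE (blue) and CS (green) pairs; open circles mark genes with a mean under 20 CPM and dotted lines 1.5-fold. Ube2l6 lies far right, at ratios of 4.78, 4.06 and 4.39, Ube2e1 and Ube2d1 lie left in all 3, and most other members sit between the dotted lines.

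The widest ratio in the FACS and PE pairs belonged to a rare member. Ube2l6 is known as the E2 of ISG15 and as a gene that interferon induces in many cell types. It had 16.2 CPM in FACS CFU-E beside 3.39 in FACS BFU-E, 14.9 in PE-high beside 3.67 in PE-low, and 8.88 in CS CFUE beside 2.02 in CS BFUE. Each later pool was above the earlier pool of its pair, as for 39.7% of the genes compared, which do not include Ube2l6. The ratios were 4.78 (95% counting interval 3.06 to 7.73), 4.06 (2.67 to 6.40) and 4.39 (1.91 to 12.4). It averaged 8.18 CPM and stands outside the counts above. Without the cells with myeloid transcripts the ratios were 4.24, 3.51 and 4.81. Without globin-rich cells the PE ratio was 2.50, and the FACS and CS ratios were 4.61 and 3.80. With every cell thinned to 6000 UMIs the FACS and PE ratios were 4.19 and 4.24. CS BFUE then kept no UMI of it, so no fold is given for that pair.

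Most of the interferon genes compared ran the other way. Of 17 interferon response genes listed, 6 were compared. In each of the 3 pairs 5 of these were at least 1.5-fold lower and 0 higher, with median log2 ratios of -2.13, -1.57 and -1.98. Over all genes compared, 10.1%, 7.28% and 9.41% were lower and 8.54%, 5.84% and 10.2% higher in the FACS, PE and CS pairs. Ifitm2, an interferon-induced membrane protein, had 36.7 CPM in FACS CFU-E against 327 in FACS BFU-E. Isg15, the modifier that Ube2l6 carries, was too rare to compare, at 2.69 CPM or less in each of the 6 pools. Uba7, the E1 of ISG15, had 4.81 CPM in FACS CFU-E against 7.59 in FACS BFU-E. Ube2l6 was therefore higher in the pools where most of the compared interferon genes were lower.

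The second question was how the magnet fractions compare with the sorted cells. Of 26 members, 0 were at least 1.5-fold apart between PE-low and FACS BFU-E, where 0.536% of genes were higher and 0.314% lower. Ratios ran between 0.831 and 1.21. Between PE-high and FACS CFU-E the 1 member past 1.5-fold was Ube2g2, with 30.8 CPM in PE-high against 47.2 in FACS CFU-E, a ratio of 0.653 (95% counting interval 0.557 to 0.766), where 2.14% of genes were higher and 0.129% lower. Without globin-rich cells, of which PE-high had 58 of 294 and FACS CFU-E 6 of 167, the ratio was 0.692. Ube2e1 had 0.974 and 1.17 in the earlier and later method pairs, and Ube2l6 1.08 and 0.920. Without globin-rich cells the later value of Ube2l6 was 0.587.

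The third question was which members differ in globin-rich cells. In the hashed library, 2 of 27 members compared (Ube2l6 and Ube2c) were at least 1.5-fold higher in globin-rich than in other cells, against 7.05% of 5391 genes, and 3 (Ube2e1, Ube2g1 and Ube2q1) were lower, against 14%. In the CITE-seq library, 0 of 24 were higher, against 4.5% of genes, and 2 (Ube2e1 and Ube2q1) were lower, against 8.34%. Within PE-high alone, 2 of 27 (Ube2l6 and Ube2c) were higher, against 5.03%, and 2 (Ube2e1 and Ube2q1) were lower, against 11.1%. The median log2 ratio of the members was -0.04, -0.09 and -0.08 in the hashed, CITE-seq and PE-high comparisons, and that of all genes compared was -0.09, -0.09 and -0.11. Ube2l6 passed the 20 CPM filter in the hashed library and in PE-high only through its level in globin-rich cells, so it could be counted there only as higher.

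**Figure D3:**
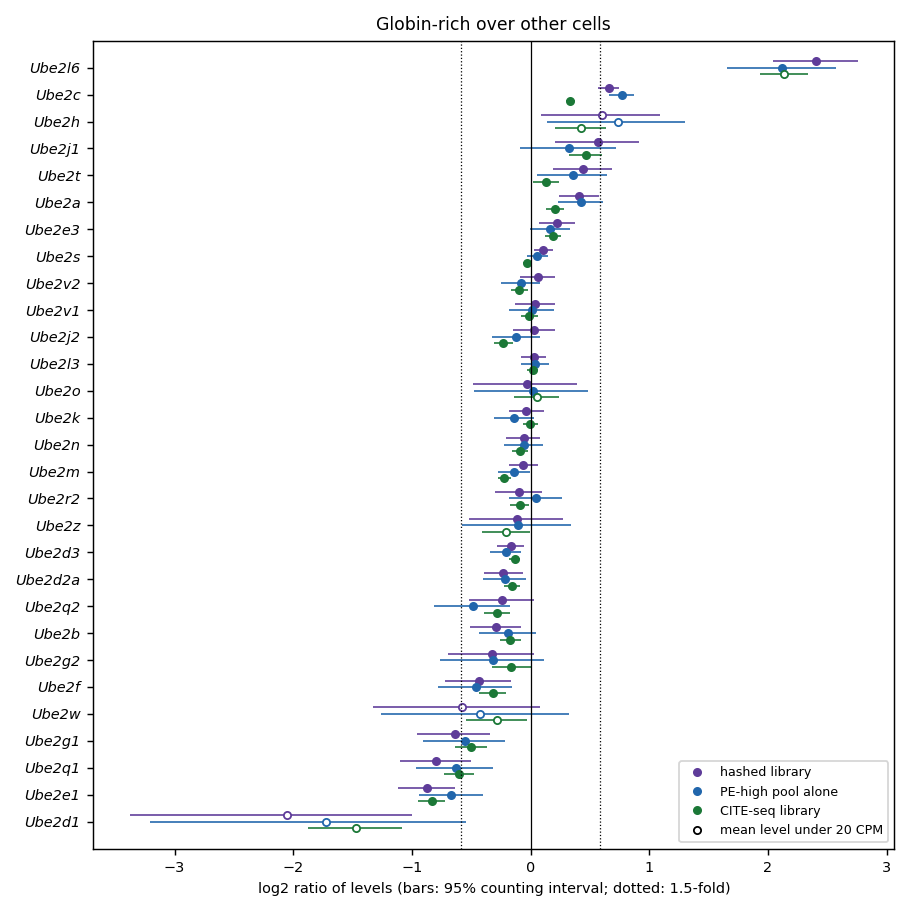
Log2 ratio of globin-rich over other cells for the compared Ube2 genes described here and for Ube2l6, Ube2d1, Ube2h and Ube2w, with 95% counting intervals, in the hashed library (purple), the PE-high pool alone (blue, a subset of the hashed library) and the CITE-seq library (green); open circles mark genes with a mean under 20 CPM. Ube2l6 lies at ratios of 5.30, 4.34 and 4.40, and Ube2e1, Ube2q1 and Ube2d1 lie lowest.

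Ube2l6 had 40.9 CPM in globin-rich and 7.72 in other hashed cells, a ratio of 5.30 (95% counting interval 4.12 to 6.77). It had 27.2 CPM in globin-rich and 6.18 in other CITE-seq cells, a ratio of 4.40 (3.82 to 5.07), and 39.8 against 9.17 within PE-high, a ratio of 4.34 (3.15 to 5.96). Its level climbed through the globin range and not only at the cut. With globins under 5, at 5 to 20, at 20 to 100 and at 100 to 500 per 10000, it had 4.42, 12.0, 21.3 and 38.6 CPM in the CITE-seq library. In the first 3 of these bins it had 6.30, 18.5 and 36.9 CPM in the hashed library, which had under 20 cells above them. Set against cells with globins of 5 to 20 alone, the ratio was 2.21 in the hashed and 2.26 in the CITE-seq library, and with the cut at 50 per 10000 it was 2.88 within PE-high. Cells of each library were also ranked into 4 equal bins by the summed share of 30 genes of the G2/M cell cycle phases. The top bin made up 56.9% of globin-rich and 22.5% of other hashed cells. Without that bin the Ube2l6 ratio was 6.67 in the hashed and 4.48 in the CITE-seq library.

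As between stages, most of the interferon genes compared were lower where Ube2l6 was higher. Of 17 listed, 7 were compared in the hashed library. Of these, 6 were at least 1.5-fold lower in globin-rich cells and 1, Isg20, was higher, at 30.9 against 11.3 CPM. Of all genes there, 14% were lower and 7.05% higher. Isg20 passed the 20 CPM filter only through the globin-rich cells, and Ifitm3 and Psmb8 only through the others, so each could be counted in 1 direction only. In the CITE-seq library 4 of 5 compared were lower and 0 higher, against 8.34% and 4.5% of all genes. Ifitm3 and Bst2 passed the filter there only through the other cells. Within PE-high alone, 3 of 5 compared were lower and 1 was higher, against 11.1% and 5.03% of all genes. Some of these 5 may also have passed the filter through 1 side only. The median log2 ratio of the interferon genes compared was -0.96 within PE-high, -1.78 in the hashed and -1.53 in the CITE-seq library. Myeloid-transcript cells were 0 of 65 globin-rich against 146 of 839 other hashed cells, and 3 of 669 against 156 of 1784 CITE-seq cells. Without them the Ube2l6 ratio was 4.67 in the hashed and 4.19 in the CITE-seq library. The part of those cells in the interferon counts was not tested.

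Ube2l6 moved with the globins and against most of the interferon genes compared, and the bases around its start are shown for that reason. These are 300 bases, 250 before and 50 after the start. They are from RefSeq on GRCm38.p6 (mm10), chr2:84798578-84798877, plus strand, written 5' to 3', and capitals mark the matches found among the 5 motifs searched.
Ube2l6: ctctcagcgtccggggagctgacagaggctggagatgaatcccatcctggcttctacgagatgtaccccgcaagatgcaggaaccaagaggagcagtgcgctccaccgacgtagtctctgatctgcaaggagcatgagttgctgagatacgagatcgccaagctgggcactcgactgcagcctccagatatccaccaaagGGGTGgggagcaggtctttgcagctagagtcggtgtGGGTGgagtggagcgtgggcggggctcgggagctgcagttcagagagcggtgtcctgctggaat
Plain letters were searched on both strands. The motif of Klf1-type factors was CACCC, and that of GATA factors was GATAA. The interferon response element was taken as GAAA, any 2 bases and GAAA again. A CCAAT box and the cell-cycle element CHR, with the letters TTTGAA, were searched as well. The Ube2l6 window held 2 Klf1-type matches, both on the opposite strand, the nearer at bases -14 to -10 from the start. That motif was in 57.5% of 32817 mouse promoter windows of this length. The GATA motif, the interferon element, the CCAAT box and CHR had no match in the Ube2l6 window, and were in 25.4%, 3.43%, 37.4% and 17.9% of all windows. A match of letters is a description and not a bound site. Windows were at hand for 28 of the 35 members, 39 in all, and the interferon element was in 0 of them. The Klf1-type motif was in 28 of the 39, with matches also for Ube2e1, Ube2q1 and Ube2d1, which were lower in globin-rich cells. It thus does not set Ube2l6 apart.

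**Figure D4:**
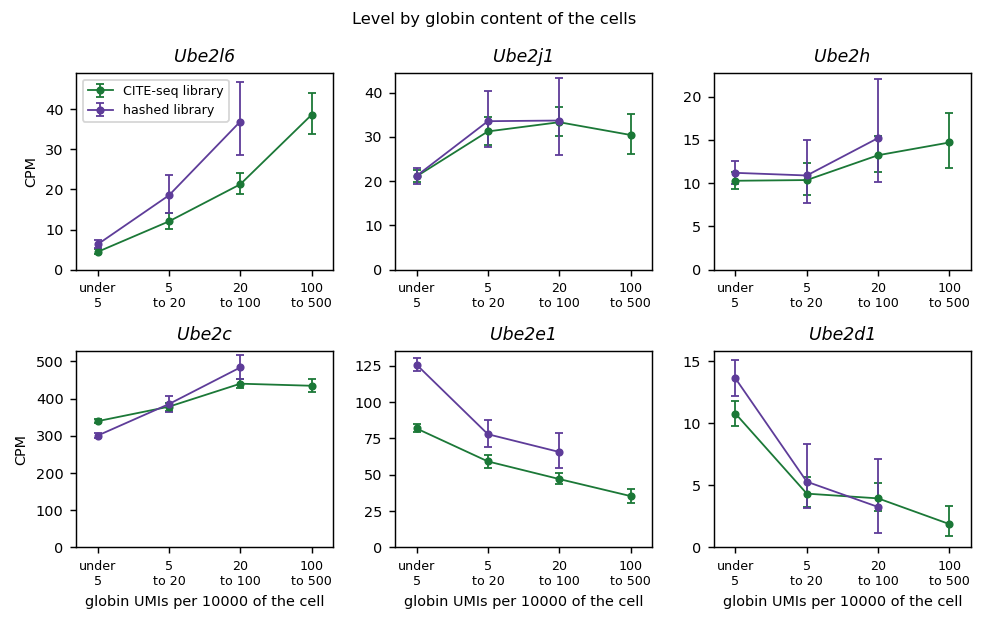
Level in CPM of 6 Ube2 genes by the summed globin UMIs per 10000 of the cell, in the CITE-seq (green) and hashed (purple) libraries, with 95% counting intervals; bins under 20 cells are left out and each panel starts at 0. Ube2l6 climbs bin by bin, to 38.6 CPM in the highest CITE-seq bin, Ube2e1 and Ube2d1 fall bin by bin, and Ube2j1 is higher from 5 per 10000 on.

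Ube2e1 was lower in globin-rich cells of both libraries, at 65.7 CPM against 120.3 in other hashed cells, a ratio of 0.546 (95% counting interval 0.461 to 0.643), and at 43.0 against 76.7 in the CITE-seq library, a ratio of 0.560 (0.519 to 0.605). Over the 4 globin bins of the CITE-seq library it had 81.9, 59.2, 47.1 and 35.4 CPM. Set against cells with globins of 5 to 20 alone the ratios were 0.843 and 0.726, short of 1.5-fold. Ube2q1 had 43.5 CPM in globin-rich and 75.5 in other hashed cells, and 33.8 against 51.4 in the CITE-seq library, at ratios of 0.576 and 0.657, and the matching values against cells with globins of 5 to 20 were 0.826 and 0.849. In the CITE-seq library the Ube2q1 ratio was 0.681 with scaling without globin, ribosomal protein and mitochondrial genes, 0.699 with median-of-ratios factors and 0.687 without myeloid-transcript cells, all short of 1.5-fold. Within PE-high, median-of-ratios factors gave 0.678 for Ube2e1 and 0.695 for Ube2q1, also short of it. In both genes the lower level began below the globin cut. Ube2g1 had 40.4 CPM against 63.1 in the hashed library, a ratio of 0.641, and 30.1 against 42.6 in the CITE-seq library, a ratio of 0.707. Its hashed ratio fell short of 1.5-fold with median-of-ratios factors, thinning, without the top G2/M bin, and against cells with globins of 5 to 20, at 0.684, 0.687, 0.692 and 0.724. Ube2d1, under 20 CPM, had 3.04 against 12.6 CPM in the hashed and 3.35 against 9.29 in the CITE-seq library, at ratios of 0.241 (0.0961 to 0.501) and 0.361 (0.272 to 0.470). Against cells with globins of 5 to 20 the ratios were 0.575 and 0.773. The hashed ratio was 0.453 with cells thinned to 6000 UMIs and 0.451 without the top G2/M bin.

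Ube2j1 had 33.5 CPM in globin-rich and 22.6 in other hashed cells, and 32.3 against 23.4 in the CITE-seq library, at ratios of 1.48 and 1.38, just inside 1.5-fold. Its level was 21.1 CPM with globins under 5 and between 30.4 and 33.3 CPM in the 3 higher CITE-seq bins, and against cells with globins of 5 to 20 the ratios were 0.999 and 1.03. Within PE-high it had 33.0 CPM in globin-rich and 26.4 in other cells, and the interval of the ratio, 0.940 to 1.64, holds 1. Over both libraries, the interval lay above 1 for 5 of 24 members (Ube2a, Ube2c, Ube2e3, Ube2j1 and Ube2t), against 18.9% of all genes, and below 1 for 7 (Ube2b, Ube2d2a, Ube2d3, Ube2e1, Ube2f, Ube2g1 and Ube2q1), against 31.2%. Both shares are close to their backgrounds.

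The members known for late red cell remodelling were present at low level. Ube2o, a large enzyme that acts as E2 and E3 together, had 21.7 CPM in FACS CFU-E beside 19.0 in FACS BFU-E, 22.1 in PE-high beside 22.2 in PE-low, and 17.5 in CS CFUE beside 18.2 in CS BFUE. It had 20.9 CPM in globin-rich against 21.3 in other hashed cells and 16.7 against 16.1 in the CITE-seq library. None of these pairs differed beyond counting error. Ube2h, the E2 of the CTLH ligase, had 11.4 CPM in FACS CFU-E beside 11.4 in FACS BFU-E, 11.8 in PE-high beside 11.3 in PE-low, and 9.98 in CS CFUE beside 11.1 in CS BFUE. Stages did not differ in it beyond counting error, with ratios of 1.00 (0.719 to 1.39), 1.05 (0.786 to 1.40) and 0.897 (0.587 to 1.40). In globin-rich cells it had 17.0 CPM against 11.1 in other hashed cells, a ratio of 1.52 (1.06 to 2.12), and 13.8 against 10.3 in the CITE-seq library, a ratio of 1.34 (1.15 to 1.56). With the cut at 10 per 10000 the hashed ratio was 1.07 and at 50 it was 2.04. Of the 11 CTLH genes, 9 were compared in the hashed library, with 3 at least 1.5-fold higher and 1 lower in globin-rich cells, where 7.05% of all genes were higher and 14% lower. Ranbp10 had 48.7 against 18.4 CPM, Wdr26 150.5 against 91.8, Gid8 84.4 against 54.6, and Maea, the lower one, 58.7 against 89.4. In the CITE-seq library 1 of 7 was higher, Ranbp10, at 39.3 against 19.3 CPM, and 0 were lower, against 4.5% and 8.34% of all genes. Ranbp10 passed the 20 CPM filter only through the globin-rich cells in both libraries and could be counted there only as higher. Within PE-high alone, 1 of 9 CTLH genes was higher and 0 were lower, against 5.03% and 11.1% of all genes. Between stages, 1, 0 and 3 of 7 CTLH genes were at least 1.5-fold higher in the FACS, PE and CS pairs and 0 were lower, against 8.54%, 5.84% and 10.2% of all genes higher.

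Ube2c and Ube2s belong to mitosis, and their levels were read beside the cell cycle. Ube2c had 370.0 CPM in FACS CFU-E beside 278 in FACS BFU-E, 321 in PE-high beside 335 in PE-low, and 446 in CS CFUE beside 362 in CS BFUE. The later pool was higher in the FACS and CS pairs, at 1.33 (1.26 to 1.42) and 1.23 (1.15 to 1.32), and not in the PE pair, at 0.959 (0.910 to 1.01). The top G2/M bin held 28.7% of FACS CFU-E against 18.0% of FACS BFU-E cells, 28.2% of PE-high against 25.0% of PE-low cells, and 27.7% of CS CFUE against 26.2% of CS BFUE cells. Without it the Ube2c ratios were 1.51, 1.18 and 1.85. Ube2s had 593 CPM in FACS CFU-E beside 504 in FACS BFU-E, 597 in PE-high beside 562 in PE-low, and 561 in CS CFUE beside 471 in CS BFUE, and the later pool was higher in all 3 pairs by at most 1.19-fold. In globin-rich cells Ube2c had 489.6 CPM against 311 in other hashed cells, a ratio of 1.58 (95% counting interval 1.48 to 1.68), and 439 against 348 in the CITE-seq library, a ratio of 1.26 (1.23 to 1.29). The 30 G2/M genes had median log2 ratios of 0.45 in the hashed and 0.29 in the CITE-seq library, against -0.09 in each over all genes compared. At least 1.5-fold higher in globin-rich cells were 10 and 3 of the 30, against 7.05% and 4.5% of all genes. Of the 30, 0 were lower in either library, against 14% and 8.34% of all genes. The top G2/M bin held 43.0% of globin-rich against 18.3% of other CITE-seq cells. Without that bin the Ube2c ratio was 1.12 in the hashed library, 1.05 within PE-high and 1.03 in the CITE-seq library.

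The G2/M list does not hold Ube2c, so the cells could be ordered by it. In the top G2/M bin Ube2c had 645 CPM against 205 in the rest of the hashed library, a ratio of 3.14 (95% counting interval 3.02 to 3.26), and 630.2 against 274 in the rest of the CITE-seq library, a ratio of 2.30 (2.25 to 2.36). It was the 1 member of 26 in the hashed and of 24 in the CITE-seq library past 1.5-fold, where 2.17% and 2.51% of genes were higher and 0.362% and 0.406% lower. Ube2s had 638 against 541 CPM and 589 against 523, at ratios of 1.18 and 1.13. Ube2t, the E2 of the Fanconi anemia pathway, had 57.4 against 44.8 CPM and 53.3 against 43.7. Within a G2/M bin, globin-rich cells had no more Ube2c than other cells. In the top bin they had 637 CPM against 646 in other hashed cells and 613 against 644 in CITE-seq cells, and in the next lower bin 233 against 320.3 and 395 against 465. Ube2l6 was higher in globin-rich cells of the top bin too, at 37.5 against 9.91 CPM in the hashed and 28.6 against 7.74 in the CITE-seq library.

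**Figure D5:**
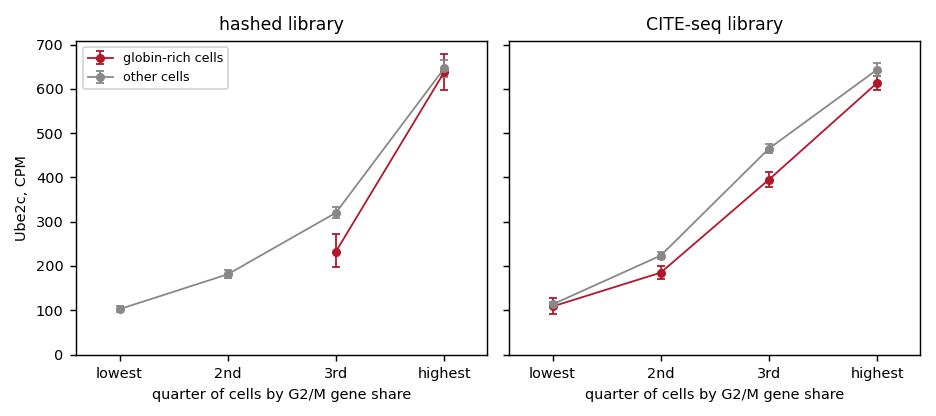
Ube2c level in CPM in 4 equal bins of the library's cells by G2/M gene share, for globin-rich (red) and other cells (grey), with 95% counting intervals; the 2 lower hashed bins held under 20 globin-rich cells and are left out for them. Ube2c climbs with the G2/M share in both, and globin-rich cells lie at or below the others in each bin shown.

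Across cells within each library, the genes whose deposited log values were most like those of Ube2c were Cenpf (Pearson r 0.672 over 904 hashed and 0.663 over 2453 CITE-seq cells), Nusap1 (0.668 and 0.658), Ccnb1 (0.641 and 0.593), Plk1 (0.686 and 0.561) and Hmmr (0.648 and 0.555). For Ube2s they were Cks2 (0.526 and 0.440), Cdc20 (0.505 and 0.380), Ube2c (0.486 and 0.360), Cenpa (0.440 and 0.353) and Tubb4b (0.468 and 0.332). For Ube2e1 they were Nme2 (0.422 and 0.354), Tagln2 (0.347 and 0.328) and Cmtm7 (0.424 and 0.315). The other 13 members of at least 100 CPM had no gene at r of 0.3 or more in both libraries. These are descriptions, since cells of a library share its capture and its spread of depth.

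The Ube2c promoter is shown because this member followed the G2/M genes most closely. The window is chr2:164769679-164769978 on GRCm38.p6, plus strand, from RefSeq, and capitals mark the CCAAT boxes, on either strand, and the CHR letters, which lie on the opposite strand.
Ube2c: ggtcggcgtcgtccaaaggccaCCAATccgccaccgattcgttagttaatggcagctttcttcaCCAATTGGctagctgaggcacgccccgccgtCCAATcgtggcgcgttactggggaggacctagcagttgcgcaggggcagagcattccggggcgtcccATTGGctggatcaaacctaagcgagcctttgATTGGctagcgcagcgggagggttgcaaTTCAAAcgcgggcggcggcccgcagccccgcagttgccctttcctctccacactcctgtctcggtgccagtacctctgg
It held 6 CCAAT boxes, 1 pair of which overlaps, and 1 CHR match at bases -29 to -24 from the start. At least as many CCAAT boxes were in 26 of the 32817 windows (0.0792%), and a CCAAT box together with CHR was in 6.94%. Among the 39 Ube2 windows, a CCAAT box was in 8 and CHR in 4. Ube2d2b and Ube2f, like Ube2c, had matches to both motifs. Having both thus does not set Ube2c apart.

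The genes on either side of the E2 step are given by list, beside the shares of all genes past 1.5-fold: 8.54%, 5.84% and 10.2% higher and 10.1%, 7.28% and 9.41% lower in the FACS, PE and CS pairs. Of 9 listed E1 enzymes 7 were compared, and 0 were past 1.5-fold in any of the 3 stage pairs. In globin-rich cells 2 of 7 were lower in each library, against 14% of all genes in the hashed and 8.34% in the CITE-seq library. With lists this short, no count is read as differing from those shares. Sae1, a subunit of the SUMO E1, had 114 against 194 CPM in the hashed and 84.5 against 134 in the CITE-seq library, and Uba6, an E1 of ubiquitin, 17.8 against 33.5 and 15.8 against 26.0. Uba6 passed the 20 CPM filter only through the other cells. Sumo3 was the 1 of 9 modifiers past 1.5-fold, at 139 against 219 and 80.3 against 124 CPM. Among the E2 enzymes of other modifiers, Ube2m, an E2 of NEDD8, had 266 against 277 and 206 against 240.4 CPM, and Ube2f, the other NEDD8 enzyme, 49.1 against 66.6 and 44.4 against 55.4. Of 17 APC/C genes, 2 were at least 1.5-fold higher in FACS CFU-E than in FACS BFU-E, Cdc27 at 53.4 against 33.5 CPM and its inhibitor Fbxo5 at 129.6 against 80.8. The activator Fzr1 was lower in PE-high, at 29.5 against 45.5 CPM in PE-low, and 0 of 17 were past 1.5-fold in CS CFUE against CS BFUE. Of 4 compared E2 enzymes without a Ube2 name, 0 were past 1.5-fold in a stage or globin comparison.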

How the data were processed

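One table, deposited by the authors for both libraries, holds natural log values by cell and Ensembl gene ID, and undoing the log gives 10000 per cell. The submitters' processing notes name Cell Ranger 4.0.0, Scanpy and the build mm10. Cell and gene filters, and any doublet removal, are unstated there, and no doublet caller was run. Dividing each cell's linear values by its smallest nonzero value gave UMI counts, whole within 0.02 for 100% of 16419767 values. Counts were summed by name and library and expressed as CPM. The CITE-seq library was identified by elimination from barcode suffixes, and 0 barcodes were shared.

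Ratios carry exact conditional binomial intervals and levels exact Poisson intervals, both at 95%. Genes with a mean of at least 20 CPM, over the 6 named pools or both sides of a globin or cycle comparison, were compared, and 1.5-fold is a call. Named were members past it, the 6 most abundant, undetected members, and up to 4 genes per partner list by size of ratio. Values of 1 member and 1 partner gene are counted but not reported here. The members and lists were chosen with earlier results of these data known. Other members with values (Ube2d1, Ube2h, Ube2l6, Ube2o and the rest), the cycle comparisons and the set of cells with globins of 5 to 20 were chosen after the data were seen. The code, tested on simulated data, used Python 3.11.15, numpy 2.4.6, pandas 2.3.3, scipy 1.17.1 and matplotlib 3.10.9.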

Additional observations from a re-analysis of the deposited data

Results flagged for a closer look

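The isolation methods differed in opposite directions for Ube2c. Its log2 ratio was 0.27 for PE-low over FACS BFU-E (335 against 278 CPM) and -0.20 for PE-high over FACS CFU-E (321 against 370.0 CPM), both inside 1.5-fold. With 1 pool per name the difference between these ratios was not tested. The top of 4 bins of cells by G2/M gene share made up 25.0% of PE-low and 18.0% of FACS BFU-E cells, and 28.2% of PE-high and 28.7% of FACS CFU-E cells. Without that bin the log2 ratios were 0.11 and -0.24.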

How the results depend on the processing

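No paired analysis was possible because each name is 1 pool and the labels give no replicate numbers. The members past 1.5-fold numbered 2 in the FACS, 2 in the PE and 1 in the CS stage pair, 0 and 1 in the earlier and later method pairs, 5, 2 and 4 in the hashed, CITE-seq and PE-high globin comparisons, and 1 in each cycle comparison. A lower fold threshold, midway between none and the main one, gave 9 (FACS), 10 (CS), 10 (hashed globin), 5 (CITE-seq globin), 9 (PE-high globin) and 2 (hashed cycle). A 2-fold threshold gave 0 (FACS, PE, CS, later method, CITE-seq globin), 1 (hashed globin) and 1 (PE-high globin). A 5 CPM filter gave 5 (FACS), 4 (PE), 4 (CS), 8 (hashed globin), 4 (CITE-seq globin) and 2 (each cycle). A 50 CPM filter gave 1 (FACS), 1 (PE), 0 (later method) and 1 (CITE-seq globin). Cells thinned to 6000 UMIs gave 4 (FACS), 5 (CS) and 2 (earlier method). Without the top G2/M bin the counts were 1 (PE) and 4 (CS), and without globin-rich cells 0 (PE) and 0 (later method). The mean over cells gave 2 (CS). In the CITE-seq globin comparison the count was 1 with scaling without globin, ribosomal protein and mitochondrial genes, with median-of-ratios factors, without myeloid-transcript cells and with globins of 10 or more. With globins of 50 or more the counts were 4 (CITE-seq) and 8 (hashed), and against cells with globins of 5 to 20 they were 0 (CITE-seq) and 1 (hashed). Median-of-ratios factors gave 2 within PE-high. By design they set the median log2 ratio of all genes compared to about 0, which there was a shift of 0.108. The other counts stayed within 1.5 times. Of 962 values of chosen single members under alternatives, 846 moved by less than the counting interval and 116 by more. In 0 of them did a ratio past 1.5-fold change sign. Ratios that only fell short of 1.5-fold, and sign changes of smaller ratios, are not in that 0. The cause of these moves was not tested. Depth limits Ube2l6, Ube2d1, Ube2h and the other members under 20 CPM, whose intervals are wide, and CS BFUE is the shallowest pool.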

Other observations

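The 2136 CITE-seq cells named unknown, of which 656 were globin-rich, entered no comparison between names. In them Ube2s had 542 CPM, Ube2c 363 and Ube2l3 298. Ube2l6 had 12.3 CPM, Ube2j1 26.7, Ube2e1 66.5, Ube2q1 46.3 and Ube2d1 7.19. The matching levels in CS CFUE were 8.88, 21.5, 67.4, 44.8 and 6.42 CPM, and in CS BFUE 2.02, 15.2, 102, 64.3 and 23.2 CPM. For Ube2e1, Ube2q1 and Ube2d1 the unknown cells thus lay nearer to CS CFUE than to CS BFUE.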
